A study of Mus musculus with 24 samples.

Results

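The early genes described here are 10 genes of the visual cortex of the mouse: the Krüppel-like factor genes *Klf2*, *Klf4*, *Klf6* and *Klf10*, the immediate early response genes *Ier2* and *Ier5*, the antiproliferative gene *Btg2*, the small Maf gene *Maff*, and the growth arrest genes *Gadd45b* and *Gadd45g*. They were chosen by gene name, though with earlier results of these data known, and are 10 of the 55414 genes in the count table. All 10 had a count of at least 30 in at least 1 library and so were among the 14464 genes tested.

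Male C57BL/6J mice, 8 to 10 weeks old and housed in a reverse light cycle, were injected with the PBS vehicle or with psilocybin (5 mg/kg), a psychedelic whose active form acts on serotonin receptors. They were then placed in light for 2.5 h or kept in the dark, and RNA from the visual cortex was sequenced. The 4 groups of 6 mice, 1 library per mouse, were PBS kept in the dark (dark group, mice 1 to 6), psilocybin kept in the dark (psilocybin-dark group, mice 7 to 12), PBS placed in light (light group, mice 13 to 18) and psilocybin placed in light (psilocybin-light group, mice 19 to 24). These names follow the headings of the count table that accompanies the study. The labels of the deposited samples give the same drug but the opposite light exposure for all 24 libraries. Under those labels every difference between a light and a dark group below has the opposite direction of light, and the reference group would be PBS in light. Which of the 2 assignments is right was not settled here.

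Immediate early genes are transcribed within minutes to hours of a stimulus without the need for new protein, and in the cortex many of them are induced by neuronal activity. The genes best known for this code for Fos and Egr factors. The 10 genes here belong to the same kind of response but act in different ways. Klf proteins bind GC-rich DNA through zinc fingers, and *Klf2* and *Klf4* are well known in blood vessel endothelium. *Ier2* and *Ier5* code for small nuclear proteins, and *Ier5* is known to act on the heat shock factor *Hsf1*. *Btg2* recruits the Ccr4-Not complex, which removes poly(A) tails. *Maff* binds DNA as a partner of Bach and Nrf factors and has no activation domain of its own. Gadd45 proteins bind the kinase *Map3k4* upstream of p38, and in neurons they have been linked to removal of DNA methylation together with *Tdg*.

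Promoter sequences are shown first, for the genes that the results below turn on. The RefSeq promoter table (GRCm38.p6) holds 250 bases before and 50 bases after each gene's start, and it matched 8 of the 10 genes with 10 windows, *Ier2* and *Klf10* not among them. Below, the 250 bases before the start are printed 5′ to 3′ on the gene's strand for *Btg2* (chr1:134079156-134079405, minus strand), *Maff* (chr15:79347270-79347519, plus strand), *Ier5* (chr1:155099637-155099886, minus strand) and *Gadd45b* (chr10:80929841-80930090, plus strand). Capitals mark the cAMP response element (CRE, TGACGTCA, or its part TGACG, on either strand) and the TATA box (TATAAA, either strand), the sequences on which CREB and the TATA-binding protein are known to act.
Btg2: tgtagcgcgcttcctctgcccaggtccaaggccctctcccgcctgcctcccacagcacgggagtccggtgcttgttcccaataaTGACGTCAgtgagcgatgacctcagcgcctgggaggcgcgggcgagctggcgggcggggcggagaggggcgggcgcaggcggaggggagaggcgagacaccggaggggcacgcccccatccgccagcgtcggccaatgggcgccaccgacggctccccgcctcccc
Maff: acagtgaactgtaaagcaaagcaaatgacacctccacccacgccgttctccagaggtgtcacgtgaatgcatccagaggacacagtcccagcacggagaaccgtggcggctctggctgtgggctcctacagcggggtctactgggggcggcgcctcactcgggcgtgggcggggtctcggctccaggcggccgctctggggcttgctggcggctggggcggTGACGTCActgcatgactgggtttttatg
Ier5: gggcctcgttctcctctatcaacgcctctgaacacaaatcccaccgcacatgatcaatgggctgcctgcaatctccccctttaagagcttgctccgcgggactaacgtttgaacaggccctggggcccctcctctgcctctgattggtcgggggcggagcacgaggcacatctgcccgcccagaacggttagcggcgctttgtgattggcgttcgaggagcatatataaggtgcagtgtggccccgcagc
Gadd45b: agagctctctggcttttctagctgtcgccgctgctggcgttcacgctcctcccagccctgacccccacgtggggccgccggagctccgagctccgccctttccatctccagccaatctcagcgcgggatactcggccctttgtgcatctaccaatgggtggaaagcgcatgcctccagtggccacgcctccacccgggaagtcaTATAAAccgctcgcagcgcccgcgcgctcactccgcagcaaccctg

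*Maff* has 3 of the 10 windows, for 3 starts, and the one printed is the only one of them with a full CRE; each other gene has 1 window, so a count of genes gives *Maff* more chances than a share of windows does. The full CRE was found in 2 of the 8 genes and 2 of the 10 windows, *Btg2* with its first base at -166 and *Maff* at -29, and in 1.79% of all 32851 windows in the table. The shorter TGACG, which every full CRE holds, was found in 4 of the 8 genes (*Btg2*, *Maff*, *Klf2* and *Klf4*) and in 20.81% of windows. TATAAA was found in *Gadd45b* (-46) and *Gadd45g* (-27) and in 13.62% of windows. The GC box GGGCGG was found in 7 of 8 genes and in 35.66% of windows, and the E-box CACGTG in 5 of 8 and 7.15%. The windows of the 8 genes were 50.3% to 74.3% G or C, against a median of 52.7% over all windows. The shares were not matched for this base composition. Neither the AP-1 site TGANTCA (7.81% of windows) nor the CArG box of serum response factor (1.63%) was found in any window of the 8 genes. *Ier5* had none of the marked motifs in its window as spelled. Only the exact letters were searched, so variants such as the tatataa near the end of the printed *Ier5* bases were not counted. The absence of TATAAA is thus not the absence of a TATA-like sequence. These matches describe letters in a short window and say nothing of binding.

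Values below are normalized counts, that is counts scaled to a common effective library size of 16058300 reads. Library totals ranged from 13552516 to 17906994, with no group standing apart. Before the genes themselves, the levels of marker genes of brain regions and cell types differed between groups. The summed level of 9 hippocampal marker genes ran from 2637 to 7163 in the dark mice, with a median of 4138, and from 1099 to 1758 in the other 18 mice, so that every dark mouse was above every other mouse. Of the 7 hippocampal markers tested, 4 were lower in the light group than in the dark group, 3 were lower in the psilocybin-dark group and 6 in the psilocybin-light group. The psilocybin-light mice (1099 to 1326) also lay below every psilocybin-dark mouse (1404 to 1758). Between these 2 groups, however, only 1 of the 7 markers tested was lower in psilocybin-light and 0 were higher. *Zbtb20* had means of 918.1 in psilocybin-dark and 535.8 in psilocybin-light, and *Fibcd1* 166 and 151.6. The mean log2 level of the markers, used in the fits below, overlapped (1.16 to 1.62 in psilocybin-light, 1.26 to 1.82 in psilocybin-dark). Of 8 excitatory neuron markers, 5 were higher in each of the 3 groups than in the dark group. The summed level of these markers was 29370 to 90770 in dark mice and 67060 to 97000 in the others. By the test described below, 31.9%, 24.7% and 38.4% of all genes tested differed from dark in light, psilocybin-dark and psilocybin-light. The sum of 6 cerebellar markers was between 19620 and 67790 in dark mice 1 and 6, psilocybin-dark mouse 12 and light mouse 18, and between 386.8 and 2721 in the other 20 mice. In such bulk samples, fewer cells of a type and less RNA per cell cannot be told apart. Fits with the hippocampal marker mean, and fits without libraries high in cerebellar markers, are given below. The excitatory marker level was not entered in a fit. Beyond these fits, the part of tissue makeup in the differences from the dark group was not tested.

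**Figure D1:**
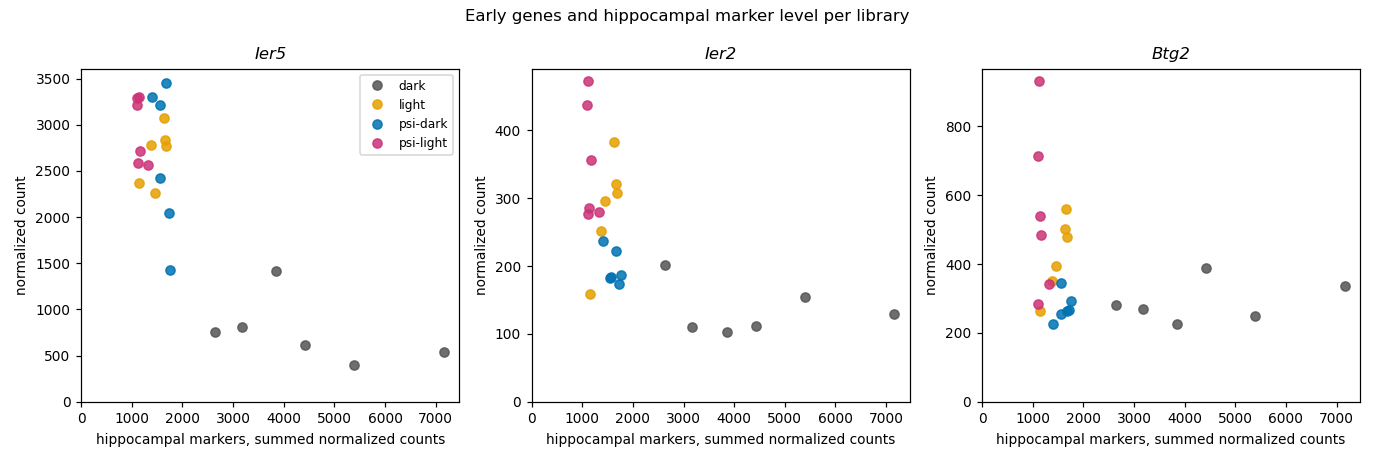
Normalized count of *Ier5*, *Ier2* and *Btg2* (vertical axes) against the summed normalized count of 9 hippocampal markers (horizontal axes), 1 point per mouse and 1 colour per group, both axes starting at 0. The dark mice lie at 2637 or above on the horizontal axis and all other mice at 1758 or below. The psilocybin-light mice, higher in *Ier2*, lie at 1099 to 1326 and the psilocybin-dark mice at 1404 to 1758. These groups thus do not overlap on the horizontal axis either, although their mean log2 levels of the same markers do overlap.

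Compared with the dark group, 6 of the 10 genes were higher in the light group (*Ier5*, *Ier2*, *Maff*, *Klf2*, *Gadd45b* and *Klf6*) and none was lower. Of all genes tested, 31.9% passed the same test (edgeR's quasi-likelihood test, Benjamini-Hochberg adjusted p under 0.05). In the psilocybin-dark group 6 were again higher (*Ier5*, *Klf10*, *Maff*, *Ier2*, *Gadd45b* and *Klf6*), with 24.7% of all genes passing. In the psilocybin-light group 6 were higher (*Ier5*, *Ier2*, *Btg2*, *Klf10*, *Gadd45b* and *Maff*), with 38.4% of all genes passing. The median log2 fold change of the 10 genes was 0.471, 0.373 and 0.652 in the 3 comparisons, and that of all genes tested was -0.01, -0.017 and -0.021. The 3 comparisons share the dark mice and so are not separate evidence.

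**Figure D2:**
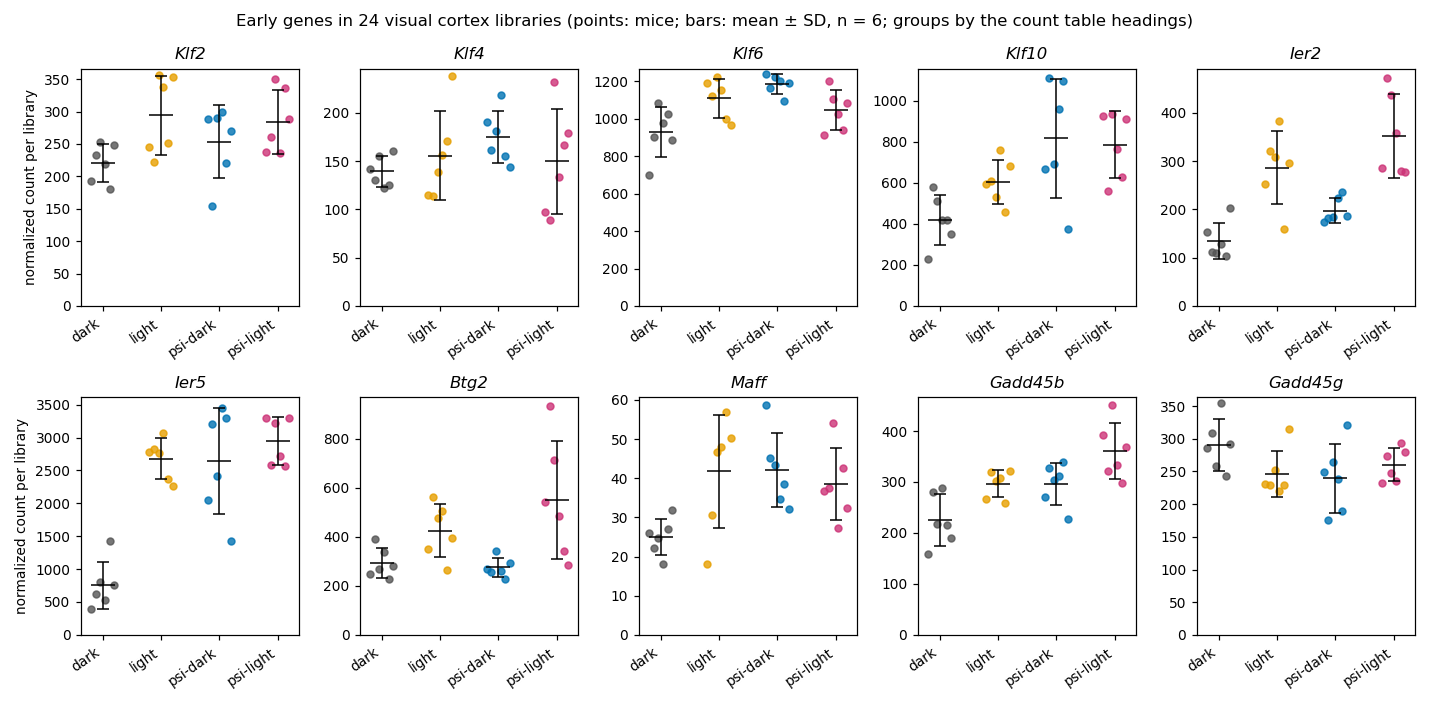
Normalized count of each of the 10 genes (vertical axis, from 0) in every mouse, by group; points are mice and bars the mean ± SD of 6 mice (psi, psilocybin). *Ier5* lies between 1427 and 3456 in the 3 other groups against 395.4 to 1420 in the dark group, *Ier2* is graded over the groups, and the psilocybin-light mice spread most for *Btg2*, from 283.2 to 932.5.

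The largest difference was that of *Ier5* (ENSMUSG00000056708, GRCm39 chr1:154972107-154975382, minus strand), which also had the highest level per kilobase of the 10 genes in the light group (818 normalized counts per kb of exon, against 13.1 for *Maff*, the lowest). In the dark mice its normalized count had a lowest, median and highest value of 395.4, 686.3 and 1420. The corresponding values were 2260, 2773 and 3075 in the light group, 1427, 2815 and 3456 in the psilocybin-dark group and 2568, 2967 and 3304 in the psilocybin-light group. No mouse of the 3 groups overlapped the dark mice, although psilocybin-dark mouse 12 (1427) lay just above dark mouse 5 (1420). The log2 fold change against dark was 1.83 ± 0.23 (SE) in light, with an edgeR adjusted p of 7.12e-06. It was 1.81 ± 0.23 (edgeR adjusted p = 1.6e-05) in psilocybin-dark and 1.97 ± 0.23 (edgeR adjusted p = 1.79e-06) in psilocybin-light. The 3 raised groups overlapped each other throughout, and their spread differed, with a coefficient of variation of 30.7% in psilocybin-dark and 11.4% in light.

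*Ier2* (ENSMUSG00000053560, GRCm39 chr8:85387960-85389483, minus strand), the other Ier gene, had a graded pattern. Its lowest, median and highest normalized counts were 103.2, 120.2 and 202 in dark mice and 173.4, 184.7 and 236.5 in psilocybin-dark mice. In light mice they were 159.1, 301.9 and 382.7, and in psilocybin-light mice 276.5, 321.3 and 472.7. Every psilocybin-light mouse was above every dark mouse and every psilocybin-dark mouse, whereas 1 light mouse (mouse 17) lay within the dark range. Against dark, *Ier2* was higher by a log2 fold change of 1.08 ± 0.19 (SE; edgeR adjusted p = 0.000183) in light and of 1.38 ± 0.19 (edgeR adjusted p = 1.01e-05) in psilocybin-light. The difference in psilocybin-dark was smaller, 0.55 ± 0.19 (edgeR adjusted p = 0.0397), and it missed the threshold when any one of dark mice 2, 3, 4 or 5 or psilocybin-dark mice 8, 9, 10 or 11 was left out (log2 fold changes from 0.48 to 0.57).

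Among the Klf genes, *Klf10* and *Klf6* were the ones that rose after psilocybin in the dark. *Klf10* (ENSMUSG00000037465, GRCm39 chr15:38291703-38300959, minus strand), first described as a TGF-beta-inducible early gene, had a lowest, median and highest normalized count of 230.8, 419 and 581.6 in dark mice and of 376.4, 825.8 and 1112 in psilocybin-dark mice. The values were 458.6, 600.5 and 758 in light and 558.6, 837.1 and 933.7 in psilocybin-light. All of these ranges overlapped that of the dark mice, and psilocybin-dark mouse 12, with 376.4, was the only psilocybin-dark mouse within it. The log2 fold change was 0.96 ± 0.23 (SE; edgeR adjusted p = 0.0034) in psilocybin-dark and 0.91 ± 0.23 (edgeR adjusted p = 0.00296) in psilocybin-light. In light it was 0.53 ± 0.23 with an edgeR adjusted p of 0.0786, and passed the test when dark mouse 2 (0.65) or psilocybin-dark mouse 12 (0.54) was left out.

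*Klf6* (ENSMUSG00000000078, GRCm39 chr13:5911481-5920393, plus strand) changed little but varied little. Its normalized counts had a lowest, median and highest value of 701.4, 939.9 and 1086 in dark mice and of 1093, 1194 and 1241 in psilocybin-dark mice, which did not overlap. Light mice (966.8, 1139 and 1224) and psilocybin-light mice (915.4, 1056 and 1199) overlapped the dark mice. The log2 fold change was 0.35 ± 0.08 (SE; edgeR adjusted p = 0.00435) in psilocybin-dark and 0.26 ± 0.08 (edgeR adjusted p = 0.0246) in light, the second of which was lost without dark mouse 1 (0.19) or light mouse 13 (0.23) or 15 (0.23). In psilocybin-light it was 0.17 ± 0.08 and did not pass (edgeR adjusted p = 0.118).

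*Klf2* (ENSMUSG00000055148, GRCm39 chr8:73072726-73075502, plus strand) and *Klf4* (ENSMUSG00000003032, GRCm39 chr4:55527139-55532528, minus strand) are genes of the vessel wall as well as early genes. The lowest, median and highest normalized counts of *Klf2* were 181.2, 225.6 and 252.4 in dark mice, 221.9, 294.5 and 356.2 in light mice, 154.1, 278.7 and 299 in psilocybin-dark mice and 235.5, 274 and 350.4 in psilocybin-light mice. *Klf2* was higher in light than in dark (log2 fold change 0.41 ± 0.15, edgeR adjusted p = 0.0443), with overlapping ranges, and the call was lost when any one of dark mice 1, 2, 4 or 5 or light mice 15, 16 or 18 was left out (0.35 to 0.43). Of 10 endothelial markers, 2 (*Esam* and *Ly6c1*) were also higher in light, and with the mean of these markers in the model the *Klf2* difference was 0.24 (edgeR adjusted p = 0.235). Without the 4 libraries with high cerebellar markers it was 0.35 and did not pass (edgeR adjusted p = 0.118). *Klf4* had a mean of 139 ± 16.2 (SD, n = 6) in dark, 156 ± 46.3 in light, 175 ± 27.1 in psilocybin-dark and 150 ± 54.1 in psilocybin-light, and no comparison of it passed. The 95% interval of its log2 difference between light and dark ran from -0.25 to 0.57.

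*Btg2* (ENSMUSG00000020423, GRCm39 chr1:134002908-134015033, minus strand) was higher with light than without it among the mice given psilocybin, with overlapping ranges. Its lowest, median and highest normalized counts were 225.8, 274.6 and 389.6 in dark mice and 226.9, 265.1 and 343.8 in psilocybin-dark mice. They were 263.4, 436.2 and 560.6 in light mice and 283.2, 511.9 and 932.5 in psilocybin-light mice. The psilocybin-light group was the most variable, with mice 20 (932.5) and 21 (713.6) highest and mouse 24 (283.2) inside the dark range. *Btg2* rose in psilocybin-light against dark (0.91 ± 0.23, edgeR adjusted p = 0.00301) and not in psilocybin-dark (-0.08, 95% interval -0.56 to 0.39, edgeR adjusted p = 0.828). In light the difference of 0.54 ± 0.23 missed the threshold (edgeR adjusted p = 0.0724) and passed when dark mouse 2 (0.64), light mouse 17 (0.65) or psilocybin-light mouse 20 (0.55) or 24 (0.55) was left out, and with the endothelial marker mean in the model (0.69, edgeR adjusted p = 0.0417).

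*Maff* (ENSMUSG00000042622, GRCm39 chr15:79230821-79243276, plus strand) was the rarest of the 10 transcripts, with lowest, median and highest normalized counts of 18.0, 25.4 and 32.0 in dark mice. It reached 32.0, 40.9 and 58.6 in psilocybin-dark, 18.2, 47.4 and 56.8 in light and 27.4, 37.2 and 54.1 in psilocybin-light. The dark and psilocybin-dark ranges were apart by less than 1 normalized count, and light mouse 13 was at the low end of the dark range. *Maff* was higher in light (0.73 ± 0.23, edgeR adjusted p = 0.0156), in psilocybin-dark (0.74 ± 0.23, edgeR adjusted p = 0.0194) and in psilocybin-light (0.62 ± 0.23, edgeR adjusted p = 0.0333). The second call was lost without psilocybin-dark mouse 7 (0.63), and the third without dark mouse 2 or 4 or psilocybin-light mouse 21 or 23 (0.50 to 0.59). The first was lost with the endothelial marker mean in the model (0.58, edgeR adjusted p = 0.0738) and when only the dark and light groups were fitted (0.73, edgeR adjusted p = 0.0577).

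The Gadd45 genes went different ways. *Gadd45b* (ENSMUSG00000015312, GRCm39 chr10:80764523-80768038, plus strand) had lowest, median and highest normalized counts of 158.3, 217.2 and 288.7 in dark mice, 259.3, 304.9 and 321.6 in light mice, 228.2, 307.8 and 339.3 in psilocybin-dark mice and 298.9, 351.5 and 451.2 in psilocybin-light mice. Only the psilocybin-light mice were all above the dark mice. Its log2 fold change was 0.39 ± 0.13 (SE; edgeR adjusted p = 0.0223) in light, 0.40 ± 0.13 (edgeR adjusted p = 0.0272) in psilocybin-dark and 0.68 ± 0.13 (edgeR adjusted p = 0.000254) in psilocybin-light. The first was lost without dark mouse 1 (0.31), and the second without dark mouse 1 or psilocybin-dark mouse 8, 10 or 11 (0.31 to 0.38). Both were lost when only the groups compared were fitted (0.39, edgeR adjusted p = 0.0524, and 0.40, edgeR adjusted p = 0.0915). The first was also lost without the 4 libraries with high cerebellar markers (0.22, edgeR adjusted p = 0.139). *Gadd45g* (ENSMUSG00000021453, GRCm39 chr13:52000714-52002508, plus strand), the only one of the 10 genes with a negative estimate in all 3 comparisons, had lowest, median and highest normalized counts of 243.5, 288.4 and 354.2 in dark, 220.7, 230.6 and 314.6 in light, 175.5, 243.8 and 320.3 in psilocybin-dark and 233, 260.8 and 294.1 in psilocybin-light, all overlapping. None of its differences passed over all 24 libraries (log2 fold change -0.24, edgeR adjusted p = 0.144 in light, and -0.28, edgeR adjusted p = 0.104 in psilocybin-dark). Without the 4 libraries with high cerebellar markers *Gadd45g* was lower in light (-0.32, edgeR adjusted p = 0.0296) and in psilocybin-dark (-0.39, edgeR adjusted p = 0.0131). That fit was chosen after seeing the data, and 43.1% and 38.3% of all genes passed in it. Leaving out light mouse 18 alone (-0.32) or psilocybin-dark mouse 12 alone (-0.38) also made the respective difference pass.

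Counted by ranges, every light mouse was above every dark mouse for 1 of the 10 genes (*Ier5*), against 5.59% of all genes tested. The count was 3 in psilocybin-dark (*Ier5*, *Klf6* and *Maff*), against 3.13%, and 3 in psilocybin-light (*Ier5*, *Ier2* and *Gadd45b*), against 8.28%. The hippocampal marker sums separate the dark mice from all others in the same way. When the mean of those markers was added to the model, none of the 10 genes passed against dark in any of the 3 comparisons, and the share of all genes passing was 6.96% in light, 0.0691% in psilocybin-dark and 9.26% in psilocybin-light. The estimates kept their sign for every gene called in the model without it, *Ier5* standing at 1.21, 1.21 and 1.25 (edgeR adjusted p = 0.0627, 0.138 and 0.0721) and *Ier2* in psilocybin-light at 0.99 (edgeR adjusted p = 0.052). That mean log2 level ran from 1.58 to 3.17 in dark mice and from 1.16 to 1.82 in the others, and only dark mouse 6 lay within the range of the others, so that the marker level and the dark group largely coincide. Without dark mice 1 and 6, the dark mice with high cerebellar markers, 3 genes passed in light (*Ier5*, *Ier2* and *Maff*), 5 in psilocybin-dark and 6 in psilocybin-light. The shares of all genes passing in that fit were 39.6%, 33.6% and 43.4%.

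Among the mice given psilocybin, those placed in light were compared with those kept in the dark, a comparison without the dark group. *Ier2* and *Btg2* were higher in psilocybin-light, and 6.38% of all genes tested passed. The log2 fold change of *Btg2* was 1.00 ± 0.23 (SE; edgeR adjusted p = 0.0103) and that of *Ier2* was 0.83 ± 0.19 (edgeR adjusted p = 0.0093). *Ier2* was the only one of the 10 genes for which every psilocybin-light mouse was above every psilocybin-dark mouse, which held for 2.61% of all genes. Leaving out any 1 of the 24 libraries kept both genes past the threshold, at 0.79 or more for *Btg2* and 0.74 or more for *Ier2*, and with the hippocampal marker mean in the model (*Btg2* 1.02, edgeR adjusted p = 0.012, and *Ier2* 0.76, edgeR adjusted p = 0.0141). *Klf6* and *Gadd45b* had an unadjusted p under 0.05 and did not pass (log2 fold change -0.18, edgeR adjusted p = 0.237, and 0.28, edgeR adjusted p = 0.213). For *Ier5* the difference was 0.16, with a 95% interval from -0.31 to 0.62.

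**Figure D3:**
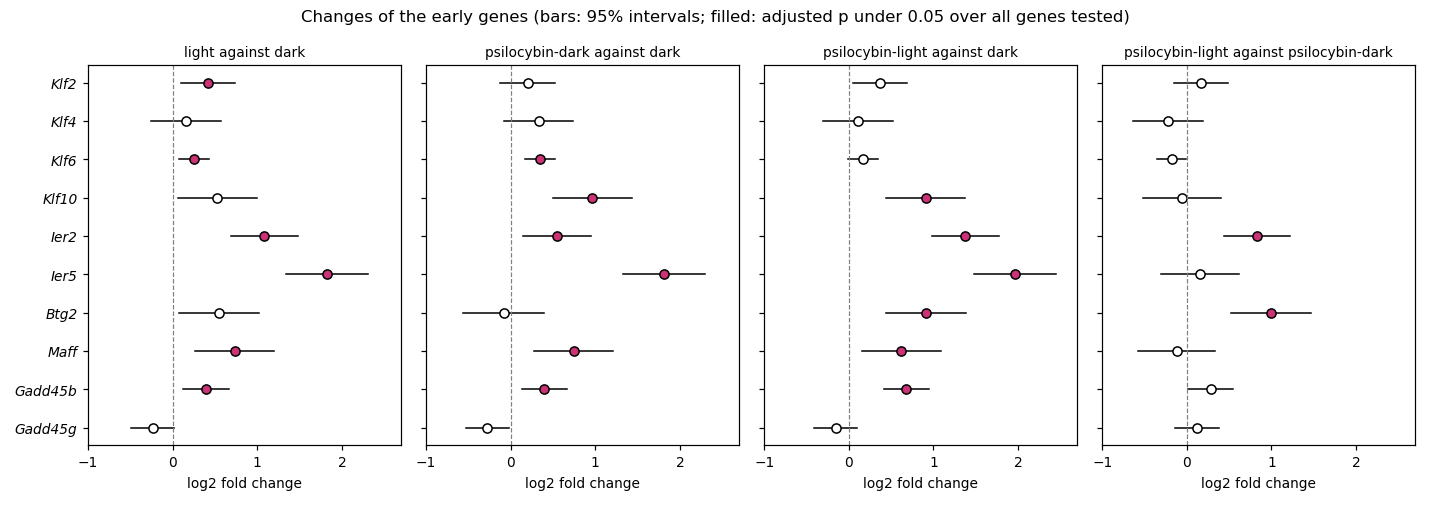
Log2 fold change of each gene (horizontal axis) in 4 comparisons, with 95% intervals; filled points passed the edgeR test at an adjusted p under 0.05 over all genes tested. In the comparison of psilocybin-light with psilocybin-dark, only *Btg2* (1.00) and *Ier2* (0.83) are filled, and the direction of light in all panels is that of the count table headings.

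Among mice placed in light, psilocybin made no difference that passed for any of the 10 genes, and 0.608% of all genes tested passed. By edgeR 1 gene had an unadjusted p under 0.05, *Gadd45b* at 0.29 ± 0.13 (edgeR adjusted p = 0.457), and DESeq2 called 0. The 95% intervals of the log2 differences still allowed sizeable changes: -0.10 to 0.83 for *Btg2*, -0.08 to 0.84 for *Klf10* and -0.33 to 0.60 for *Ier5*. Psilocybin in the dark against PBS in light, the direct comparison of the single treatments, likewise gave 0 of 10 by edgeR and by DESeq2, with 0.456% of all genes passing. There, 2 genes had an unadjusted p under 0.05, *Btg2* (-0.63 ± 0.23, edgeR adjusted p = 0.168) and *Ier2* (-0.54 ± 0.19, edgeR adjusted p = 0.153), both lower in psilocybin-dark, while *Ier5* differed by -0.02 with an interval from -0.49 to 0.45. *Klf10* was 0.43 ± 0.22 higher in psilocybin-dark (edgeR adjusted p = 0.389) and passed without the 4 libraries with high cerebellar markers (0.62, edgeR adjusted p = 0.039). In that fit 6.03% of all genes passed.

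The interaction term asks whether the effect of psilocybin in light differs from its effect in the dark. It was negative and passed for 2 of the 10 genes, *Ier5* (-1.67 ± 0.32, edgeR adjusted p = 0.0039) and *Klf6* (-0.43 ± 0.12, edgeR adjusted p = 0.0266), against 8.75% of all genes tested. For *Ier5* the difference made by psilocybin was 1.81 in the dark and 0.14 in light, and for *Klf6* it was 0.35 and -0.09. *Maff* (-0.85 ± 0.32) did not pass (edgeR adjusted p = 0.091), and *Btg2* had a positive estimate of 0.45 ± 0.32 (edgeR adjusted p = 0.413). The *Klf6* term was lost without light mouse 15 (-0.40) or psilocybin-light mouse 19 (-0.39), and the *Maff* term passed without light mouse 13 (-1.01). The dark mice enter this term too, and with the hippocampal marker mean in the model no gene of the 10 passed. The share of all genes passing was then 0.0622%. Of 8 excitatory neuron markers, 4 had a negative interaction term that passed and 0 a positive one, with a median of -1.18. The part of tissue makeup in the interaction terms of *Ier5* and *Klf6* was not tested.

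Within groups the 10 genes did not move as 1 block. After subtracting group means, the deviations of *Klf10* over the 24 libraries went with those of *Gadd45b* (Pearson r = 0.815) and *Ier5* (0.676), and those of *Ier5* went against those of *Gadd45g* (-0.663). *Btg2* and *Ier2*, the pair that rose in psilocybin-light over psilocybin-dark, formed another pair (0.569). *Klf4* went with *Klf2* (0.582) and *Maff* (0.525), and *Klf2* with *Gadd45g* (0.597). Without the 4 libraries with high cerebellar markers, the coefficient was 0.644 for *Klf10* and *Gadd45b*, 0.416 for *Klf10* and *Ier5*, -0.675 for *Ier5* and *Gadd45g* and 0.727 for *Btg2* and *Ier2*. These coefficients are descriptions, and all values of a mouse come from the same library.

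**Figure D4:**
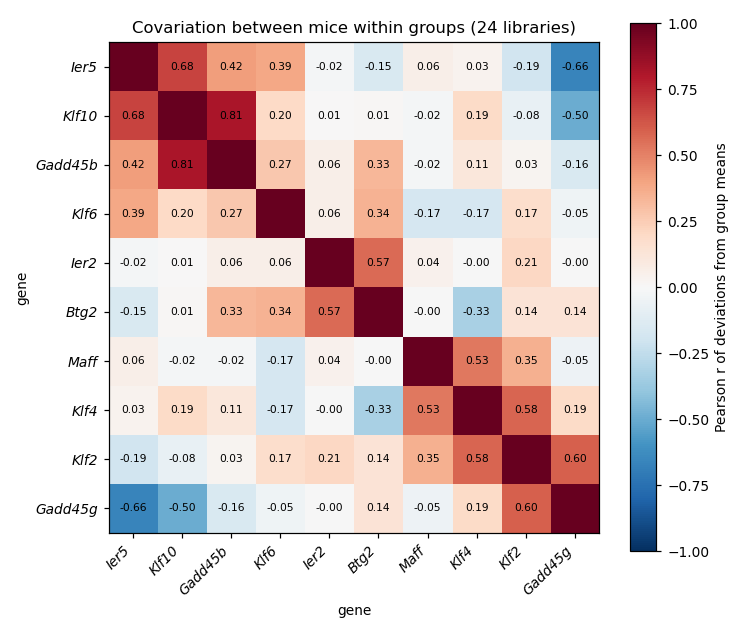
Pearson r between the 10 genes (both axes) over 24 libraries, computed on log2 values after subtracting group means; red is positive, blue negative. *Klf10* and *Gadd45b* (0.81) are the closest pair, and *Ier5* and *Gadd45g* (-0.66) the most opposed.

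Among the 11101 genes whose mean count reached 100, the one whose within-group deviations were most like those of *Btg2* was *Npas4* (r = 0.645), the activity-induced transcription factor of neurons. For *Klf10* it was the *Ier5* relative *Ier5l* (0.841), and for *Klf2* it was *Adgra2* (0.83), a receptor of brain endothelium. The nearest genes of the others were *Il17ra* for *Ier5* (0.91), *Cdk12* for *Ier2* (0.798), *Fbxw7* for *Klf6* (0.877) and *Cped1* for *Klf4* (0.831). *Eif3j1* was nearest to *Maff* (0.68), *C230057M02Rik* to *Gadd45b* (0.869) and *Tmem9* to *Gadd45g* (0.836). Each is the highest of 11101 coefficients over 24 libraries, and such a search alone can give high values. No link between the genes was tested, and the search was not repeated without the libraries with high cerebellar markers.

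Other members of the same families gave a mixed picture. Of 24 relatives 21 were tested. Against dark, 3 were higher and 1 lower in light, 4 higher and 0 lower in psilocybin-dark, and 5 higher and 1 lower in psilocybin-light. The shares of all genes passing in these comparisons were 31.9%, 24.7% and 38.4%. The median log2 fold change of the relatives was 0.0086 in light, 0.0623 in psilocybin-dark and -0.0094 in psilocybin-light. The damage-inducible *Gadd45a* rose most, with means of 109 ± 40.7 (SD, n = 6) in dark, 228 ± 25.2 in light, 286 ± 114 in psilocybin-dark and 287 ± 64.1 normalized counts in psilocybin-light, and with log2 fold changes of 1.06 ± 0.25 in light and 1.38 ± 0.25 in psilocybin-dark (edgeR adjusted p = 0.0023 and 0.000341). *Ier5l* (0.99 and 0.80) and the glucocorticoid-responsive *Klf9* (0.70 and 0.74) were higher in both. *Klf13* was higher in psilocybin-dark (0.32, against 0.19 and edgeR adjusted p = 0.0782 in light), and *Klf12* was lower in light (-0.30). Between psilocybin-light and psilocybin-dark, 1 relative was higher (*Klf15*, 0.31) and 1 lower (*Klf7*, -0.42), both named after their values were seen. In that comparison 6.38% of all genes passed.

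Genes that the 10 proteins are known to act with, or that are known to drive early genes, were also measured. Of 35 such partners 33 were tested. Against dark, 4 were higher and 4 lower in light, 5 higher and 2 lower in psilocybin-dark, and 5 higher and 6 lower in psilocybin-light. The shares of all genes passing were again 31.9%, 24.7% and 38.4%. *Mef2c*, an activity-dependent transcription factor of excitatory neurons, was higher in light (0.97 ± 0.25) and psilocybin-dark (1.09 ± 0.25), as were the p38 kinase gene *Mapk14* (0.29 and 0.27) and *Tdg*, the DNA glycosylase that removes oxidized methylcytosine (0.43 and 0.52). *Bach1*, a partner of small Maf proteins (-0.31 and -0.24), and *Map3k4*, the kinase that Gadd45 proteins bind (-0.21 and -0.17), were lower in both. *Hsf1* (0.23) was higher, and the Ccr4-Not scaffold *Cnot1* (-0.23) and the p38 activator *Map2k6* (-0.54) were lower, in light. *Mef2d* (0.24) and *Tet3* (0.59) were higher in psilocybin-dark. The *Mef2c* counts ran from 1542 to 10440 in dark mice, and 5 of 8 excitatory neuron markers were also higher in both groups. With the hippocampal marker mean in the model, 6.96% of all genes passed in light and 0.0691% in psilocybin-dark. The part of tissue makeup in the differences of relatives and partners from dark was not tested.

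*Tet3*, which codes for an enzyme that oxidizes methylcytosine, was highest in psilocybin-dark. Its lowest, median and highest normalized counts were 963.9, 1308 and 1557 in that group, 756.9, 842.2 and 1064 in dark, 847, 926.7 and 1227 in light and 723, 859 and 937.7 in psilocybin-light. *Tet3* was lower in psilocybin-light than in psilocybin-dark by a log2 difference of -0.61 ± 0.12 (edgeR adjusted p = 0.00274). In that comparison 3 of the 33 partners tested were lower and 0 higher, and 6.38% of all genes passed. The rule by which partners were named did not cover this comparison. The interaction term of *Tet3* was -0.78 ± 0.16 (edgeR adjusted p = 0.00632). A negative interaction term passed for 3 of the 33 partners and a positive one for 0, with 8.75% of all genes passing. *Tdg* differed by 0.04 between psilocybin-light and psilocybin-dark and did not pass (edgeR adjusted p = 0.853).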

How the data were processed

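Gene counts were those deposited by the authors: polyA RNA libraries trimmed with cutadapt, aligned to GRCm39 with STAR and counted per gene with htseq-count (the labels' processing notes name mm10; strand setting and annotation release are not given in the sources used here). Deposited counts were used as they are. The 24 libraries were fitted together with edgeR 4.0.16 (4 groups, TMM scaling, quasi-likelihood F test), keeping genes with a count of at least 30 in at least 1 library. P-values were adjusted over all 14464 genes tested and called under 0.05. SE was the log2 fold change over the square root of F. The script was tested on simulated data. Every pair of libraries within a group differed by more than counting noise, and p-values rest on the spread between the 6 mice of a group. Gene names and positions came from GENCODE vM39.

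All 10 genes, relatives and partners that passed in light or psilocybin-dark against dark, and the gene of nearest deviations, were named by rule. One relative is not reported here. Alternatives were DESeq2 1.42.0, DESeq2 size factors, library totals, filterByExpr, no filter, fewer groups, 1 surrogate variable (sva 3.50.0), hippocampal or endothelial marker means, libraries left out, a fold limit and the sample labels. The genes and lists were chosen with earlier results of these data known. R 4.3.3 and matplotlib 3.10.9 were used.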

Additional observations from a re-analysis of the deposited data

Results flagged for a closer look

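Light mouse 18 had a normalized *Gadd45g* count of 314.6, far from the nearest other light mouse (252.1). Its gap was 0.666 of the range of the group, above Dixon's critical value of 0.625 for 6 samples. It was the only one of 40 groups so marked, and chance marks about 1 in 20. This mouse is one of the 4 with high cerebellar markers, and the part of those markers in its *Gadd45g* level was not tested.

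The effect of psilocybin differed between light and dark for *Ier5*, with an interaction term of -1.67 on the log2 scale (edgeR adjusted p = 0.0039), and for *Klf6*, with a term of -0.43 (edgeR adjusted p = 0.0266), a test that 8.75% of all genes tested passed. With the hippocampal marker mean in the model neither passed (*Ier5* -1.18, edgeR adjusted p = 0.19, and *Klf6* -0.43, edgeR adjusted p = 0.211). The *Klf6* term was also lost without light mouse 15 (-0.40) or psilocybin-light mouse 19 (-0.39). A negative term that passed was also found for 4 of 8 excitatory neuron markers, and a positive one for 0. Their median term was -1.18, and the part of tissue makeup in these terms was not tested.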

How the results depend on the processing

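The higher level of *Ier2* and *Btg2* in psilocybin-light against psilocybin-dark passed under each of the 11 alternatives other than the fold limit and the sample labels. With the hippocampal marker mean in the model, 0 of the 10 genes passed in light, psilocybin-dark or psilocybin-light against dark, and 0 in the interaction. When a log2 change of 1 or more in size was also asked for, 2 passed in light against dark, 1 in psilocybin-dark, 2 in psilocybin-light, 0 in psilocybin-light against psilocybin-dark and 1 in the interaction. Fitting only the groups compared left 2 in light against dark, with 21.4% of all genes passing (this was not run for the interaction). Leaving out dark mice 1 and 6 left 3 in light against dark, with 39.6% of all genes passing. Testing all genes without a filter left 1 in the interaction, with 2.39% of all genes passing. A fit without mice 1, 6, 12 and 18 was chosen after seeing the data. In it 1 gene passed in psilocybin-dark against light (*Klf10*), with 6.03% of all genes passing. In the interaction 4 then passed, with 27% of all genes passing. *Gadd45g* (0.56, edgeR adjusted p = 0.0133) and *Maff* (-0.96, edgeR adjusted p = 0.0485) were the ones added. The cause of these shifts was not tested.

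With light exposure by the sample labels, the 6 genes of light against dark became 6 lower genes, the 2 of psilocybin-light against psilocybin-dark became 2 lower, and the 2 of the interaction 2 higher. The comparisons of psilocybin groups with PBS mice then gave 0 in psilocybin-dark against dark, 0 in psilocybin-light against dark, 6 in psilocybin-light against light and 6 in psilocybin-dark against light.

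Leaving out 1 library gave 3 to 7 genes in light against dark, the 3 without dark mouse 1. It gave 4 to 7 in psilocybin-dark, 5 to 7 in psilocybin-light, 2 in psilocybin-light against psilocybin-dark, 0 in the other pairs and 1 to 3 in the interaction, the 1 without light mouse 15 or psilocybin-light mouse 19. No gene called with all libraries changed sign in these fits or in those above other than by the sample labels. No paired analysis was possible because the sample labels used here link no mouse to one of another group. The study's methods state that littermates were allotted to groups at random. Litters are not named in those labels, so litter was not modelled. *Maff*, with raw counts from 18 to 59, is the gene for which depth limits the values most.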

Other observations

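Markers of other cell types and regions were counted in the same fit. The shares of all genes passing against dark were 31.9% in light, 24.7% in psilocybin-dark and 38.4% in psilocybin-light. In light against dark, 4 of 8 microglial markers were higher and 0 lower, 1 of 8 astrocyte markers was higher and 2 lower, and 2 of 8 inhibitory neuron markers were higher and 1 lower. The corresponding counts in psilocybin-dark against dark were 1 and 0 for microglia, 1 and 2 for astrocytes and 2 and 1 for inhibitory neurons. None of 7 oligodendrocyte and 8 mural cell markers (pericytes and smooth muscle) passed in either comparison. Of 6 cerebellar markers, 0 passed in light or psilocybin-dark and 6 were lower in psilocybin-light against dark. Of 5 thalamic markers 0 passed in light or psilocybin-dark, 2 of 6 striatal markers were higher in light, and 1 of 3 tested choroid plexus markers was higher in light.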
